A study of Homo sapiens with 6 samples.

Results

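Chromosome 19 carries the densest collection of zinc finger genes in the human genome. In GENCODE release 44, which uses build GRCh38 and gives the gene coordinates used here, 246 of its protein-coding genes have a symbol made of ZNF and a number, and 233 of them, the members described here, had a total estimated count above 60 over the 6 libraries. They were chosen by symbol, position and that total, which was taken over both groups together. The libraries were made from K562 cells, an erythroid leukemia line grown in suspension. In 3 libraries (the Chelator group) the cells had been kept overnight with 10 µM 21H7, a cell-permeable iron chelator, and in 3 (the DMSO group) with an equal volume of the solvent. The groups differed in no other label, both were unmodified K562 cells, and polyadenylated RNA was read as pairs of 150 cycles. The labels number the libraries within each group and do not say that they came from separate cultures, so p-values measure the spread between these libraries. In bulk RNA, fewer cells of a type and less RNA per cell cannot be told apart.

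Most ZNF proteins are DNA-binding factors built from tandem C2H2 zinc fingers, each a short fold held by a zinc ion, and many carry a KRAB domain at the start of the protein. The KRAB domain binds TRIM28, which brings in the methyltransferase SETDB1, HP1 proteins and histone deacetylases, and the bound region is packed into heterochromatin marked by methylation of histone H3 on lysine 9 (H3K9). Many of these proteins bind and silence transposable elements. The genes arose by repeated tandem duplication, so they lie in clusters and share sequence, and the 3′ ends of many ZNF genes are themselves marked by H3K9 methylation.

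The libraries held 78503600 to 90252100 estimated counts matched to genes in DMSO and 85329400 to 100954000 in Chelator, and the members took between 0.280% and 0.314% of them. The 9 erythroid markers reported (GATA1, TAL1, HBG1, HBG2, HBE1, HBZ, KLF1, NFE2 and EPOR) all reached 1 TPM (a transcript's share of the library, corrected for its length and set to a common sum), and their summed level was 12384 to 13727 TPM in DMSO and 17458 to 18632 TPM in Chelator. The globins HBG1, HBG2, HBE1 and HBZ carried that sum and were higher in Chelator (log2 fold changes of 0.24, 0.37, 0.76 and 0.48), whereas KLF1 (-0.72), EPOR (-0.44), NFE2 (-0.40) and TAL1 (-0.28) were lower at a DESeq2 adjusted p under 0.05 and GATA1 (-0.13) did not pass. Of 10 markers of other cell types, 5 stayed below 1 TPM in every library, MS4A1 was at 0, and the sum of the list was 84.2 to 91.1 TPM in DMSO and 71.6 to 80.8 TPM in Chelator. The part of the markers in the results was not tested. DMSO replicate 2 stood further from the other DMSO libraries than they did from each other, with a chi-square per gene of 76.2 and 52.8 against 9.62, and Chelator replicate 1 stood apart in its group at 35.2 and 33.0 against 7.15. Fragment length, read from the lengths salmon assigned to transcripts without counts, was 252 to 264 bases in DMSO and 200 to 218 bases in Chelator. Every DMSO library had the longer fragments, and the effects of treatment and of fragment length cannot be told apart here.

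Promoter sequences of 207 members were found in RefSeq on build GRCh38.p14, each from 250 bases before to 50 bases after the annotated start. Those of 5 members with a called change are shown because they belong to the strongest rises and to falls of abundant members, and they include every one of the leading called members whose promoter held a match. They are given 5′ to 3′ on the gene's strand, and capitals mark matches to the motifs listed after them. ZNF331 (chr19:53520764-53521063, plus strand), ZNF350 (chr19:51986791-51987090, minus strand) and ZNF534 (chr19:52428898-52429197, plus strand) were higher in Chelator. ZNF587B (chr19:57830049-57830348, plus strand) and ZNF526 (chr19:42220062-42220361, plus strand) were lower.
ZNF331: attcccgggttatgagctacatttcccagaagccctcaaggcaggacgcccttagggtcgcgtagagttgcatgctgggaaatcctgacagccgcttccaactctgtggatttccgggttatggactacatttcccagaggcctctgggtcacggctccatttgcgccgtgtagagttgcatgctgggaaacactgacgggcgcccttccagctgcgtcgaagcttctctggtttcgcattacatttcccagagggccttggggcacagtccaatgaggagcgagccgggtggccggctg
ZNF350: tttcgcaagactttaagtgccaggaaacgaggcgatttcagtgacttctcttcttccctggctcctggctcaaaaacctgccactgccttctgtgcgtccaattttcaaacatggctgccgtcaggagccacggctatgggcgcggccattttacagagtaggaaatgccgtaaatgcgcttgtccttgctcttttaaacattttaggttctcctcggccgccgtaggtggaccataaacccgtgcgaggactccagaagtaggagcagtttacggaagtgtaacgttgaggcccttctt
ZNF534: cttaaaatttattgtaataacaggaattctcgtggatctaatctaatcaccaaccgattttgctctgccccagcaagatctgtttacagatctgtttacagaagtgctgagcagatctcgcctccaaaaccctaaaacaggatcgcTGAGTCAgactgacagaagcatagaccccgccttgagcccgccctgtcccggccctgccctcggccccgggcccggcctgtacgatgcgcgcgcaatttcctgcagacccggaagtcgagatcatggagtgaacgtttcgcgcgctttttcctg
ZNF587B: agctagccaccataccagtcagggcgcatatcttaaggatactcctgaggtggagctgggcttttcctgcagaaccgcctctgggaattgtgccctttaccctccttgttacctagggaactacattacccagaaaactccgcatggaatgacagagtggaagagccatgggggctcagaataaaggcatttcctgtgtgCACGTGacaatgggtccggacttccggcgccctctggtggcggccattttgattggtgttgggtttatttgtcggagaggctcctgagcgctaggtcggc
ZNF526: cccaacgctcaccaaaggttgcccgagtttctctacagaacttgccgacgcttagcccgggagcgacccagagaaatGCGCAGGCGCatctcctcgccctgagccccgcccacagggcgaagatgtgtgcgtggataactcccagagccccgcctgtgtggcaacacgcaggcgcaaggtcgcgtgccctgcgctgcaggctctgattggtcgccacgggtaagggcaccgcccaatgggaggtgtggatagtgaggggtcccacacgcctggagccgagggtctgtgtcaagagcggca

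The motifs were searched on both strands, none holds another, and neighbouring matches can share bases. The core bound by hypoxia-inducible factors (ACGTG) was found in 18.4% of the 207 member promoters and in 21.4% of all 35116 promoters of the same length. AP-1 (TGANTCA) was found in 6.76% of member promoters against 7.71% of all, EGR (GCGNGGGCG) in 6.28% against 9.43%, and the cAMP response element (TGACGTCA) in 3.38% against 1.85%. NRF1 (GCGCA and GCGC with any 1 base between them) was found in 11.1% against 5.78%. Of the shown promoters, that of ZNF534 held 1 AP-1 match, that of ZNF587B 2 matches to the hypoxia core that overlap on opposite strands, and that of ZNF526 1 NRF1 match. These 3 were the only ones with a match among the 11 promoters found for the leading called members, and those of ZNF331, ZNF350, ZNF550, ZNF112, ZNF677, ZNF846, ZNF837 and ZNF573 held none, which says only that these letters are absent from these windows. Over all called members with a promoter, 1 of 14 called higher held AP-1 and 0 any of the other motifs, and of 3 called lower 1 held the hypoxia core and 1 NRF1. Member promoters had a median GC content of 60% and 20 CpG dinucleotides, against 58.7% and 14 over all promoters.

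Most members were expressed at a low level. Over the 6 libraries the mean level of a member ranged from 0.0563 to 87.7 TPM with a median of 3.75, and 49 members were above 10 TPM, 133 between 1 and 10 TPM and 51 below 1 TPM. ZNF146 (OZF), which consists almost entirely of zinc fingers and has no KRAB domain, was the most abundant, at 92.2, 107 and 93.1 TPM in DMSO and 86.5, 72.9 and 74.0 TPM in Chelator. The lowest DMSO library lay above the highest Chelator library. ZNF787 followed at 54.3 ± 3.18 TPM (SD, n = 3) in DMSO and 48.0 ± 2.09 in Chelator, then ZNF428 at 29.4 ± 2.97 and 37.7 ± 2.23, and ZNF544 at 37.8 ± 3.45 and 26.5 ± 1.94. Of these 4, only ZNF544 carried a KRAB-like pattern, a match to the conserved residues of the domain near the start of the protein. The summed level of all members was 1451, 1727 and 1501 TPM in DMSO and 1519, 1524 and 1499 TPM in Chelator, or 1560 ± 147 and 1514 ± 13.1 (SD, n = 3). These sums overlapped between the groups, and DMSO replicate 2 was the highest of the 6.

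**Figure D1:**
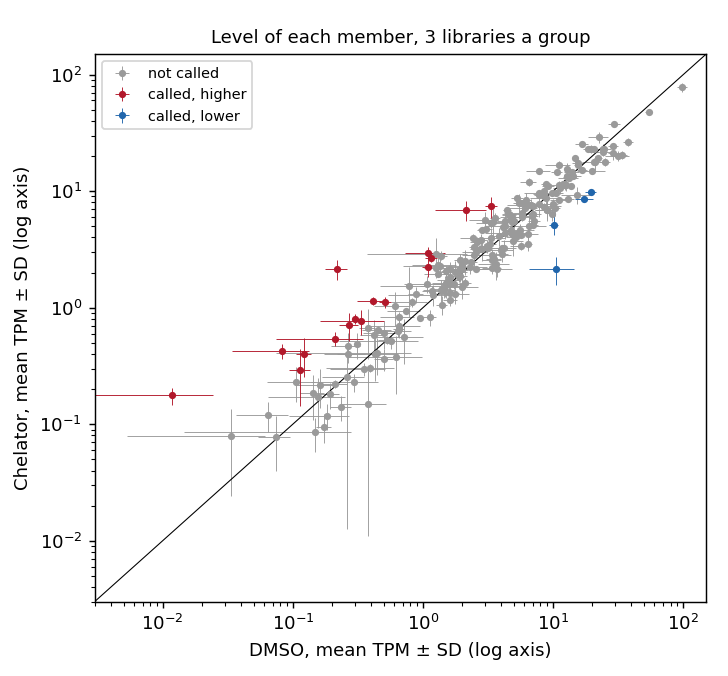
Mean level of each of the 233 members in DMSO (x axis, TPM, log axis) and Chelator (y axis, TPM, log axis), with SD over 3 libraries as bars, shortened where they would pass below 0. Most members lie along the line of equal levels, the 16 called higher (red) sit below 10 TPM in both groups, and the 4 called lower (blue) lie above 10 TPM in DMSO.

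The comparison asked how overnight iron chelation changed the mRNA level of each member. A gene was called when the adjusted p of DESeq2's Wald test, taken over all genes, was under 0.05 and the log2 fold change passed 1 in either direction. Of the 233 members, 20 (8.58%) were called, 16 higher and 4 lower in Chelator, beside 10.8% of all genes tested (8.18% higher and 2.60% lower). The 16 include ZNF560 and ZNF85, whose total passed 60 only through Chelator. The falls depended most on the processing, with 17 higher and 0 lower when protein-coding transcripts alone were summed, 12 and 1 without the length offset, and 17 and 2 with TMM size factors. Among genes that also had a total above 60 the background was 11.6% (8.82% higher and 2.76% lower). With an adjusted p under 0.05 at any fold, 58 members were higher and 42 lower, and 133 did not pass, beside 19.5% of all genes higher and 18.3% lower. The split of the members depended on centring: it was 67 higher and 36 lower with TMM size factors, and 42 higher and 59 lower when the mean log2 change of all genes was set to 0.

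Shifts of members were mostly small. The median log2 fold change was 0.06 (-0.05 with centring on the mean change) with quartiles of -0.27 and 0.40, and 160 of the 233 members lay within 0.5 of no change. Over all genes tested the median was 0.02. For 936 other protein-coding genes of chromosome 19 with a total above 60 the median was 0.17. Of these, 144 (15.4%) were called, 128 of them higher, beside 10.8% of all genes. For 237 ZNF genes on other chromosomes the median was -0.06, and 11 (4.64%) were called, 6 higher and 5 lower. With an adjusted p under 0.05 at any fold, 32 ZNF genes of other chromosomes (13.5%) were higher and 69 (29.1%) lower, beside 19.5% and 18.3% of all genes. These groups are set side by side as descriptions, with no test between them.

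**Figure D2:**
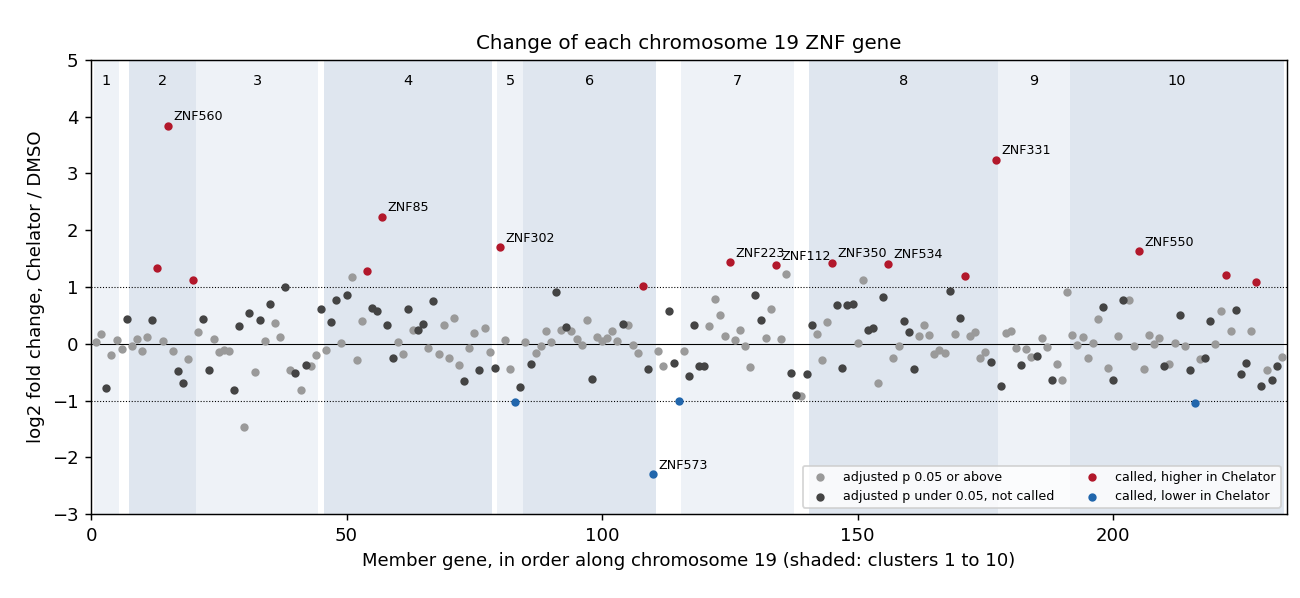
Log2 fold change (Chelator against DMSO, y axis) of each of the 233 members in their order along chromosome 19 (x axis, member number), with clusters 1 to 10 shaded and dotted lines at a change of 1 in either direction. The 16 members called higher (red) are spread over 7 clusters, ZNF560 and ZNF331 stand highest at 3.84 and 3.24, and ZNF573 lowest at -2.29.

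ZNF331, an imprinted KRAB zinc finger gene at the end of cluster 8 (chr19:53519527-53580269, plus strand), rose most among members whose mean normalized count was 100 or more. Normalized counts are estimated counts divided by the library's size factor and by the relative average length of the gene's transcripts. ZNF331 held 49.9, 28.7 and 44.5 of them in DMSO and 317, 445 and 391 in Chelator, so that every Chelator library lay far above every DMSO library. The log2 fold change was 3.24 ± 0.26 (SE) at a DESeq2 adjusted p of 1.35e-34, a 9.47-fold difference. Part of the rise was on transcripts with 0 counts in all 3 DMSO libraries: ZNF331-217, annotated without a coding sequence, held 61, 131 and 119 counts in the Chelator libraries and the protein-coding ZNF331-225 held 21, 58 and 71. ZNF331-201, a protein-coding transcript, held 27, 38 and 49 counts in DMSO and 134, 183 and 82 in Chelator. The change in transcript shares did not pass its own test (edgeR diffSpliceDGE adjusted p 0.0537). ZNF331 and the other largest rises and falls were named only where the groups did not overlap, so the lack of overlap adds no support.

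ZNF350 (chr19:51964340-51986856, minus strand), also called ZBRK1, is a KRAB protein that works with BRCA1 to repress GADD45A. It stood at 81.7, 103 and 163 normalized counts in DMSO and 307, 270 and 344 in Chelator, with a log2 fold change of 1.42 ± 0.26 (SE) at a DESeq2 adjusted p of 2.88e-07. The groups did not overlap, and DMSO replicate 3 was the highest of its group. Most counts fell on its protein-coding transcript ZNF350-201, at 89, 105 and 89 in DMSO and 256, 244 and 248 in Chelator. The antisense gene ZNF350-AS1 overlaps ZNF350, and the strand setting of these libraries is not given in the sources used here, so reads of the pair cannot be told apart. ZNF350-AS1 had a log2 fold change of 0.52 (DESeq2 adjusted p 0.378).

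ZNF534 (chr19:52429148-52452315, plus strand) also lies in cluster 8. Its normalized counts were 138, 70.6 and 125 in DMSO and 287, 274 and 317 in Chelator, a log2 fold change of 1.41 ± 0.26 (SE) at a DESeq2 adjusted p of 3.40e-07. ZNF677, further along the cluster (chr19:53235381-53254898, minus strand), was at 94.2, 95.3 and 92.7 in DMSO and 239, 192 and 213 in Chelator, a log2 fold change of 1.19 ± 0.23 (DESeq2 adjusted p 1.37e-06). Both were higher in all 3 Chelator libraries than in any DMSO library. ZNF112 (cluster 7) rose from 67.9, 57.0 and 71.4 to 162, 185 and 164 normalized counts, a log2 fold change of 1.38 ± 0.26 (DESeq2 adjusted p 8.24e-07), again without overlap. The calls of ZNF331, ZNF350, ZNF534, ZNF677 and ZNF112 held in all 14 alternative fits. Those of ZNF560 and ZNF85 did too, but these genes passed the total of 60 only through Chelator and the count is no sign of stability for them.

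The calls of the other 3 largest rises were lost under some alternatives. ZNF550 (chr19:57535257-57559863, minus strand, cluster 10), which overlaps ZNF549 on the other strand, held 659, 296 and 315 normalized counts in DMSO and 1091, 1524 and 1296 in Chelator. Its log2 fold change was 1.63 ± 0.40 (SE, DESeq2 adjusted p 2.25e-04), but 0.98 without the length offset and -0.14 (adjusted p 0.918) when only protein-coding transcripts were summed. Among the transcripts that the latter leaves out, the nonsense-mediated decay transcript ZNF550-204 held 110, 133 and 98 counts in DMSO and 317, 428 and 342 in Chelator, and ZNF550-201, of the same kind, 0 in DMSO and 121, 171 and 164 in Chelator. ZNF846 (cluster 2) rose from 292, 285 and 275 to 489, 645 and 719 normalized counts, a log2 fold change of 1.12 ± 0.17, which was 0.998 without Chelator replicate 3 and 0.91 without the length offset. ZNF837 (cluster 10), which has no KRAB-like pattern, rose from 96.5 ± 10.7 to 205 ± 16.8 (SD, n = 3), a log2 fold change of 1.09 ± 0.23. It was 0.98 with centring on the mean change and 0.89 with GC content and length trends removed, both below the limit of 1.

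**Figure D3:**
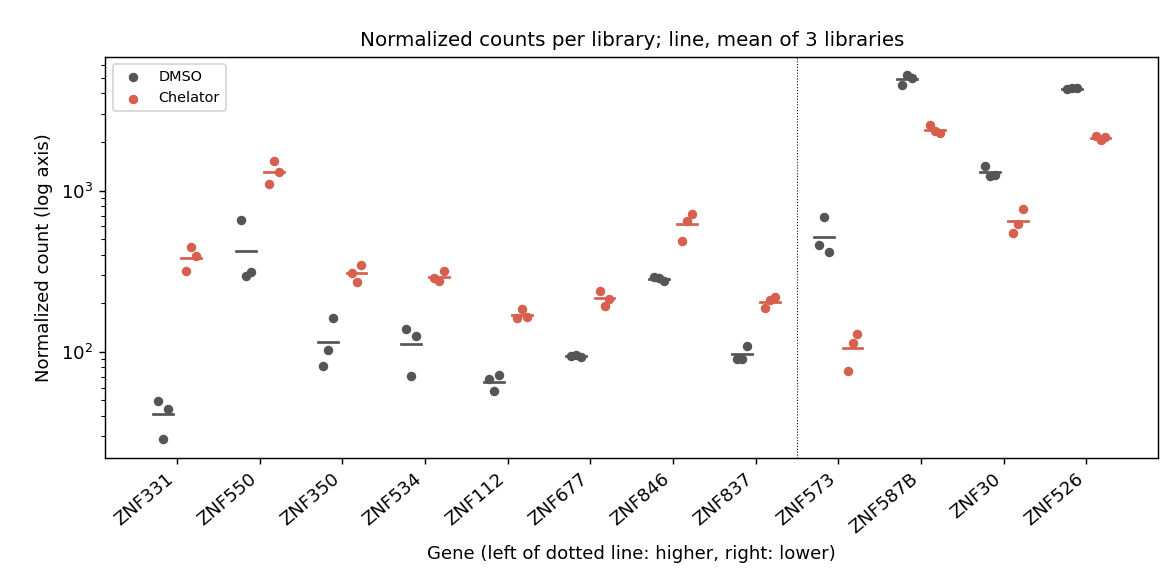
Normalized counts (y axis, log axis) of the 8 members with the largest called rises (left of the dotted line) and the 4 called falls (right), 1 point per library and a line at the mean of the 3 libraries. For each of the 12 genes the DMSO points (grey) and Chelator points (red) do not overlap, which was a condition for naming them.

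Of the 4 members called lower, ZNF573 (chr19:37735833-37817300, minus strand), at the end of cluster 6, fell from 457, 682 and 414 to 76.4, 114 and 128 normalized counts, a log2 fold change of -2.29 ± 0.24 (SE) at a DESeq2 adjusted p of 1.69e-19. No Chelator library came near a DMSO library. Its size rests on transcript length, because the average effective length of its transcripts was 426 bases in DMSO and 1039 in Chelator. With no length offset it was -1.04, and the estimated counts themselves were 309, 338 and 267 in DMSO against 180, 189 and 152 in Chelator. With protein-coding transcripts alone it was -0.88 (adjusted p 0.0147). In DMSO 67.7%, 80.1% and 59.4% of its TPM lay on ZNF573-216, a transcript of 237 bases with only 13, 21 and 9 counts, and the DMSO fragments themselves were 252 to 264 bases long. In Chelator the same transcript held 21.1%, 44.2% and 54.3% of TPM on 1, 4 and 5 counts. The normalized level of ZNF573 is therefore poorly measured in both groups, while the direction held in each of these fits.

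ZNF526 (chr19:42220292-42228201, plus strand) has no KRAB-like pattern, lies outside the clusters and overlaps GSK3A on the other strand. It held 4253, 4319 and 4308 normalized counts in DMSO and 2181, 2046 and 2163 in Chelator, a log2 fold change of -1.01 ± 0.07 (SE) at a DESeq2 adjusted p of 1.47e-39, and the libraries of each group lay close together. ZNF587B (chr19:57819721-57846238, plus strand), which overlaps ZNF586 on the same strand, fell from 4536, 5177 and 5009 to 2536, 2326 and 2267, a log2 fold change of -1.05 ± 0.09 (adjusted p 2.19e-31). ZNF30 (chr19:34926903-34945170, plus strand), the most abundant member of cluster 5, fell from 1426, 1239 and 1240 to 546, 622 and 769, a log2 fold change of -1.02 ± 0.14 (adjusted p 6.26e-12). All 3 lie close to the limit of 1: ZNF526 was at -0.98 without Chelator replicate 2, and ZNF30 was at -0.95 without DMSO replicate 1, -0.90 without Chelator replicate 1 and -0.99 without Chelator replicate 2. The call of ZNF30 held in 6 of the 14 alternative fits and that of ZNF526 in 9, and both were lost with TMM, with edgeR, without the length offset and with protein-coding transcripts alone. ZNF587B kept its call in 11 and was at -0.96 without the length offset, -0.96 with GC content and length trends removed and -0.992 with protein-coding transcripts alone. Each of the 3 stayed lower with an adjusted p under 0.05 in all 14.

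The other 8 called members were all higher, and 7 of them, all but ZNF571, had a mean normalized count below 100. Apart from ZNF560 they are named outside the rule, after their values were seen. ZNF560 (cluster 2) held 2, 0 and 4 estimated counts in DMSO and 34, 31 and 37 in Chelator, and its log2 fold change of 3.84 ± 0.89 (SE) at a DESeq2 adjusted p of 8.87e-05 is that of a gene close to no signal in DMSO. ZNF85 (cluster 4) held 11, 2 and 12 counts against 33, 41 and 28, a log2 fold change of 2.24 ± 0.67 (adjusted p 0.00292). In both, every Chelator library exceeded every DMSO library. Both passed the total of 60 only through Chelator, where they were high, as did ZNF682, so a difference was built into their selection.

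ZNF302 (cluster 5) held 21, 20 and 16 counts in DMSO and 45, 45 and 29 in Chelator (log2 fold change 1.70, DESeq2 adjusted p 0.00349). The adjusted p was 0.05002 without Chelator replicate 1 and 0.164 without the length offset and 0.120 with protein-coding transcripts alone, each of which ended the call. ZNF223 (cluster 7) held 18, 28 and 18 counts against 84, 65 and 65 (log2 fold change 1.44), and 55.9% of its 31-base sequences also occur in expressed transcripts of other genes. Its adjusted p was 0.0570 without DMSO replicate 1, 0.05003 without DMSO replicate 3 and 0.0690 without Chelator replicate 1. ZNF177 (cluster 2) held 27, 39 and 34 counts against 67, 84 and 83 (log2 fold change 1.34), overlaps the read-through gene ZNF559-ZNF177, and shares 79.3% of its sequence. Without the length offset it was at 0.994, below the limit.

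ZNF737 (cluster 4) held 51, 49 and 61 counts against 75, 88 and 60, which overlap. Its log2 fold change of 1.28 came with a fall in average effective transcript length from 6568 to 3765 bases, and was 0.22 without the length offset and 0.84 without Chelator replicate 3, where the call was lost. ZNF606 (cluster 10) held 41, 46 and 22 counts against 72, 76 and 74 (log2 fold change 1.22). Its adjusted p was 0.0630 without DMSO replicate 1, 0.0725 without DMSO replicate 3, 0.0525 without Chelator replicate 1 and 0.106 without Chelator replicate 3 by DESeq2, and without the length offset ZNF606 was at 0.81 (0.0627). ZNF571 (cluster 6) held 137, 146 and 136 counts against 251, 270 and 237, and ZNF571-AS1 and ZNF540 lie on its other strand. Its log2 fold change of 1.02 was 0.999, 0.92, 0.87 and 0.996 without DMSO replicate 1, DMSO replicate 2, Chelator replicate 1 and Chelator replicate 3 in turn, 0.62 without the length offset and 0.91 with centring on the mean change.

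Members with a known role changed in both directions, by less than a log2 fold change of 1 apart from ZNF331 and ZNF350. ZNF274, which binds the 3′ ends of ZNF genes and recruits TRIM28 and SETDB1 to them, held 3250, 2932 and 2734 normalized counts in DMSO and 4527, 4415 and 4505 in Chelator. It was higher in every Chelator library, with a log2 fold change of 0.59 ± 0.09 (SE) at a DESeq2 adjusted p of 6.18e-11. ZNF93, a repressor of LINE-1 elements, rose from 792, 857 and 803 to 1686, 1372 and 1415, a log2 fold change of 0.87 ± 0.12 (DESeq2 adjusted p 1.33e-12), which passed 1 without the length offset (1.02). ZNF91, which represses SVA elements, held 501, 497 and 446 normalized counts in DMSO and 526, 420 and 426 in Chelator, with a log2 fold change of -0.07 ± 0.15 (DESeq2 adjusted p 0.769). Its groups overlapped.

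ZNF473, which takes part in forming the 3′ ends of histone mRNAs, fell from 4849, 4873 and 5335 to 3714, 3585 and 3159 normalized counts, a log2 fold change of -0.53 ± 0.09 (SE) at a DESeq2 adjusted p of 2.55e-08. ZNF146 fell from 14958 ± 136 to 11732 ± 1465 (SD, n = 3), a log2 fold change of -0.35 ± 0.09 (adjusted p 4.74e-04), or -0.20 with GC content and length trends removed. ZNF420 (Apak), an inhibitor of p53-dependent apoptosis, fell from 1028, 777 and 689 to 463, 578 and 591, a log2 fold change of -0.61 ± 0.17 (adjusted p 0.00120), or -0.39 with protein-coding transcripts alone. In these 3 genes no Chelator library reached a DMSO library. The other members with a role did not pass in this fit. ZNF224, a repressor of aldolase A, was at 0.24 ± 0.12 (DESeq2 adjusted p 0.101), ZNF558, which represses SPATA18, at 0.08 ± 0.10 (0.575) and ZNF382, a KRAB repressor silenced in several tumors, at 0.04 ± 0.51 (0.970) with only 23 to 47 estimated counts a library. ZNF224 passed in 3 of the 14 alternative fits, at 0.47 (9.73e-05) without the length offset, 0.28 (0.0371) with TMM and 0.30 (0.0433) without DMSO replicate 1, and ZNF558 in 1, at 0.23 (0.0211) without the length offset (DESeq2 adjusted p).

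The 246 annotated genes fall into 10 clusters when runs of at least 5 genes with gaps of at most 500 kb are taken, and 221 members lie in them. Cluster 1 (ZNF554 to ZNF77) and cluster 5 (ZNF302 to ZNF792) hold 5 members each. Cluster 2 (ZNF414 to ZNF846) holds 13, cluster 3 (ZNF653 to ZNF791) 24, cluster 4 (ZNF101 to ZNF254) 33 and cluster 6 (ZNF565 to ZNF573) 26. Cluster 7 (ZNF575 to ZNF180) holds 22, cluster 8 (ZNF175 to ZNF331) 37, cluster 9 (ZNF628 to ZNF835) 14 and cluster 10 (ZNF264 to ZNF446) 42. The other 12 members lie between clusters.

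Rises outnumbered falls by the most members in clusters 4 and 8. At an adjusted p under 0.05 they also did so in cluster 2, with 4 higher (30.8%) and 2 lower (15.4%). Cluster 3 had 6 higher (25%) and 4 lower (16.7%), and cluster 7 had 5 higher (22.7%) and 4 lower (18.2%). In cluster 8 (chr19:51571283-53580269), 15 members (40.5%) were higher and 3 (8.11%) lower at an adjusted p under 0.05, beside 19.5% and 18.3% of all genes, 19 did not pass, and the median log2 fold change was 0.21. Besides the 4 called members already described, ZNF160 rose from 1687, 2030 and 1735 to 3702, 3138 and 3499 normalized counts, a log2 fold change of 0.92 ± 0.10 (SE) at a DESeq2 adjusted p of 1.15e-17, without overlap. ZNF841 rose by 0.70 ± 0.09 and ZNF432 by 0.69 ± 0.12, while ZNF611 fell by 0.45 ± 0.11 and ZNF614 fell by 0.43 ± 0.10 (log2 scale). ZNF28, the most abundant member of the cluster, held 2055 ± 505 and 2582 ± 202 normalized counts and did not pass (log2 fold change 0.33, DESeq2 adjusted p 0.0638). It did pass in 5 of the 14 alternative fits, at 0.21 (0.0192) without the length offset, 0.19 (0.0170) with protein-coding transcripts alone, 0.52 (0.00124) without DMSO replicate 3, 0.38 (0.0294) with TMM and 0.33 (0.0492) without a count filter. The summed level of the cluster was 271, 332 and 286 TPM in DMSO and 329, 336 and 328 TPM in Chelator, or 296 ± 31.8 and 331 ± 4.06 (SD). These sums overlapped between the groups through DMSO replicate 2. With centring on the mean change the split was 10 higher and 7 lower, and without the length offset also 10 and 7.

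In cluster 4 (chr19:19668796-24129968), the cluster nearest the centromere on the short arm, 12 members (36.4%) were higher and 3 (9.09%) lower at an adjusted p under 0.05, beside 19.5% and 18.3% of all genes, 18 did not pass, and the median log2 fold change was 0.24. ZNF737 and ZNF85 were called. ZNF506 at 0.77 ± 0.24, ZNF208 at 0.75 ± 0.27 and ZNF626 at 0.63 ± 0.19 were among the higher members, and ZNF724 at -0.66 ± 0.21, ZNF681 at -0.46 ± 0.11 and ZNF714 at -0.25 ± 0.08 were the lower ones (log2 fold change ± SE). The adjusted p of ZNF506 passed in 10 of the 14 alternative fits, that of ZNF208 in 10, of ZNF626 and ZNF714 in 12 and of ZNF724 and ZNF681 in 13. ZNF506 was at 0.0595, 0.0556 and 0.0812 without DMSO replicate 1, DMSO replicate 3 and Chelator replicate 3, and ZNF208 at 0.113, 0.0703 and 0.197 without DMSO replicate 1, DMSO replicate 3 and Chelator replicate 1. Without Chelator replicate 3 ZNF626 was at 0.0755 and ZNF714 at 0.0582, and without DMSO replicate 3 ZNF724 was at 0.0540 (DESeq2 adjusted p). ZNF714 was the most abundant of the cluster at 22.3 ± 1.33 and 19.1 ± 1.23 TPM. The split was 9 and 3 with centring on the mean change and 8 and 6 without the length offset, and 7 and 2 without DMSO replicate 3 or without Chelator replicate 3.

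The remaining clusters had between 0 and 8 members higher and between 1 and 10 lower, and cluster 7, with a median close to those of clusters 4 and 8, had 5 higher and 4 lower. The split of cluster 7 was 7 and 2 with TMM size factors, 5 and 2 with protein-coding transcripts alone and 4 and 2 without DMSO replicate 3. It was 7 and 5 without the length offset and 4 and 5 with centring on the mean change. Cluster 9 (chr19:55476617-56671783) had a median of -0.15, with 0 members higher and 4 (28.6%) lower at a DESeq2 adjusted p under 0.05, beside 19.5% and 18.3% of all genes, and 0 called. The split was 1 higher and 3 lower with edgeR's quasi-likelihood test, and 2 and 4 with TMM size factors or with protein-coding transcripts alone. It was 0 and 7 with GC content and length trends removed and 0 and 2 without Chelator replicate 2. At an unadjusted p under 0.05, 7 of the 14 members of cluster 9 passed, a count given without the share of all genes, so it is not read as a result. Only 5 of these 14 had a KRAB-like pattern. ZNF787, its most abundant member, fell from 9554 ± 350 to 8282 ± 218 normalized counts, a log2 fold change of -0.21 ± 0.07 (DESeq2 adjusted p 0.00785), and at -0.12 (0.261) without the length offset. In cluster 10, 8 (19.05%) were higher and 10 (23.8%) lower, shares near those of all genes, with a median near 0, and its leading gene ZNF544 fell by 0.54 ± 0.08 on the log2 scale.

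In the remaining clusters the medians were 0.04 in cluster 1, 0.05 in cluster 2, -0.12 in cluster 3, -0.45 in cluster 5, 0.07 in cluster 6 and 0.19 in cluster 7, and with centring on the mean change those of clusters 1, 2 and 6 were below 0. Cluster 1 was also below 0 without the length offset (-0.04) and without DMSO replicate 1 or any 1 of the Chelator libraries (-0.07 to -0.01), and cluster 3 above 0 with protein-coding transcripts alone (0.15) and without DMSO replicate 3 (0.06). The median of cluster 5, over 5 members, was -0.24 without the length offset and -0.65 to -0.33 with a library left out, and that of cluster 2 was 0.010 to 0.077 with a library left out. Their most abundant members were ZNF57 (-0.20 ± 0.13), ZNF561 (-0.69 ± 0.15), ZNF440 (-0.10 ± 0.09), ZNF30, ZNF146 and ZNF428 (0.33 ± 0.10), given as log2 fold change ± SE. Of these, ZNF561 and ZNF428 passed at a DESeq2 adjusted p of 2.17e-05 and 0.00233, and ZNF57 and ZNF440 did not pass (0.228 and 0.410). ZNF428 was at 0.13 (adjusted p 0.213) with GC content and length trends removed and did not pass with centring on the mean change either (0.0741). Outside the clusters, 3 of 12 members were higher (25%) and 5 lower (41.7%) at an adjusted p under 0.05, beside the same 19.5% and 18.3%, with a median of -0.36. Neighbouring members of a cluster had only weakly related changes, with a Pearson r of 0.08 over 211 pairs and the same sign in 58.3%. Neighbours share sequence, libraries and often base composition, so these pairs are not independent.

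**Figure D4:**
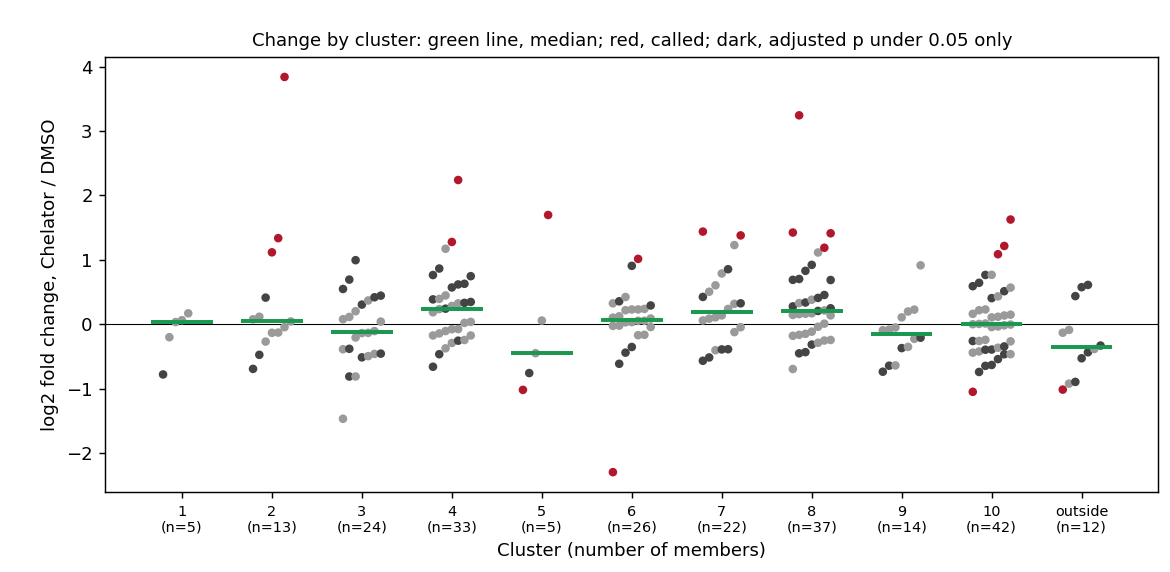
Log2 fold change (Chelator against DMSO, y axis) of the members of each cluster (x axis, with the number of members), green lines at the medians, red points for called members and dark points for others with an adjusted p under 0.05. In this fit the medians of clusters 4, 8 and 7 are 0.24, 0.21 and 0.19 and that of cluster 5 is -0.45 (5 members), cluster 7 being above clusters 4 and 8 at 0.32 without the length offset, 0.25 without DMSO replicate 2, 0.21 without DMSO replicate 3 and 0.29 without Chelator replicate 2, and every cluster spreads on both sides of 0.

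The members were also described by features of the encoded proteins. A KRAB-like pattern was found at the start of 197 proteins, and 36 had none. Of those with the pattern, 54 were higher and 29 lower at an adjusted p under 0.05, or 27.4% and 14.7%, beside 19.5% and 18.3% of all genes. Their median log2 fold change was 0.08, and 18 (9.14%) were called, beside 10.8% of all genes. Of those without, 4 were higher and 13 lower, with a median of -0.11, and 2 were called. With centring on the mean change the split became 40 and 44 with the pattern and 2 and 15 without. The groups also differed in other ways, since the members without the pattern had a median transcript GC content of 59.8% against 44.9% and a median normalized count of 1281 against 517, and the part of these in the result was not tested.

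The proteins held between 1 and 36 C2H2 fingers with a median of 12, ZNF208 having the most and ZNF414 and ZNF428 a single match each. Across members the number of fingers was unrelated to the log2 fold change (Pearson r 0.00017, n = 233 genes, which are not independent), and GC content weakly so (r -0.11). By level, 13 calls fell on members with a mean normalized count of 100 or more and 7 on members below. Of 77 members with a mean normalized count of 1000 or above, 2 were called (2.60%), both lower, and the median was -0.11. Of 117 members between 100 and 1000, 11 were called (9.40%), 9 of them higher. Of 39 members below 100, 7 were called (17.9%), all higher, beside 10.8% of all genes, with a median of 0.23, and ZNF560 and ZNF85 among them had entered only through Chelator.

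Because the genes are duplicates, salmon must divide many of their reads. In a typical member, 11.5% of the distinct 31-base sequences of all its expressed transcripts also occurred in expressed transcripts of other genes. In 12 members more than 50% did. ZNF709 was highest at 88.8%, followed by ZNF57 at 79.6% and ZNF177 at 79.3%. Values of these genes are uncertain to that extent. Among the 63 members above 20%, 3 were called (4.76%), and among the 170 at or below 20%, 17 were (10.0%), beside 10.8% of all genes. ZNF331 (5.38%), ZNF350 (4.21%), ZNF112 (1.68%) and ZNF560 (0.682%) shared little. The spread between libraries was moderate: over the 194 members at a mean of 100 normalized counts or more, the median coefficient of variation was 9.39% in DMSO and 10.1% in Chelator.

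Transcript shares were tested separately, as the share of each transcript in its gene's TPM. Of 187 members with at least 2 testable transcripts, 7 (3.74%) were called by edgeR's diffSpliceDGE at an adjusted p under 0.05 with a change of over 5 percentage points, beside 9.22% of all genes. They were ZNF550, ZNF224, ZNF100, ZNF226, ZNF577, ZNF420 and ZNF347. In 5 of the 7 a transcript met the filter of 10 counts in 3 libraries through one group alone: ZNF550-206, ZNF550-201, ZNF224-201, ZNF226-211 and ZNF420-201 through Chelator, with 0 counts in DMSO, and ZNF347-207 through DMSO, with 0 counts in Chelator. A difference was built into the selection of these 6 transcripts, and the calls of their genes are given as description. In ZNF550 the retained-intron transcript ZNF550-206 held 0 counts in all 3 DMSO libraries and 76, 127 and 96 in Chelator, which was 44.3%, 45.0% and 47.7% of the gene's TPM. The nonsense-mediated decay transcript ZNF550-203 made up 28.3 ± 16.7% of the TPM in DMSO and 7.89 ± 1.65% in Chelator. Here the Chelator libraries lay close together and the DMSO libraries far apart.

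ZNF224-201, a protein-coding transcript, likewise held 0 counts in DMSO and 235, 215 and 151 in Chelator, or 14.7%, 12.8% and 11.4% of TPM, while the gene as a whole did not pass in the main comparison. In ZNF100 the long ZNF100-202 went from 66.8 ± 6.68% to 43.0 ± 2.44% (SD, n = 3) and the short ZNF100-205 from 2.88 ± 2.97% to 25 ± 0.84%. In ZNF226 the short ZNF226-211 held 0 counts in DMSO and 24, 18 and 18 in Chelator. ZNF577-203 went from 19.1 ± 5.16% to 36.2 ± 3.98% on 6 to 32 counts. ZNF100-205, ZNF226-211 and ZNF577-203 are 588, 447 and 523 bases long, and their shares rest on at most 99 counts a library, whereas ZNF100-202 held 1126 to 1990. Few calls were stable over the 10 alternatives: ZNF100 held in 4, ZNF577 and ZNF347 in 3, and ZNF226 and ZNF420 in 1. ZNF224 and ZNF550 held in 7 and were lost whenever a Chelator library was left out, since a transcript at 0 in DMSO then cannot reach 10 counts in 3 libraries. Without DMSO replicate 2 there were 3 calls, without Chelator replicate 1, 2 or 3 there were 4, 3 and 1, and with limma's diffSplice 30.

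Retained-intron transcripts made up more of the members' TPM in Chelator, at 5.83%, 5.97% and 6.14%, than in DMSO, at 4.67%, 4.87% and 4.97%. The groups did not overlap. The same share over all genes tested was 5.21%, 5.63% and 5.45% in DMSO and 6.03%, 6.54% and 6.68% in Chelator. Nonsense-mediated decay transcripts stayed at 4.11% to 4.47% of the members' TPM in DMSO and 4.04% to 4.46% in Chelator, while over all genes tested their share was 2.23% to 2.41% in DMSO and 2.74% to 3.14% in Chelator, without overlap.

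KRAB zinc finger proteins act through shared partners. Of 26 corepressors and heterochromatin factors, 15 were lower and 2 higher at a DESeq2 adjusted p under 0.05, 9 did not pass, and the median log2 fold change was -0.28. Over all genes tested 19.5% were higher and 18.3% lower by the same rule. None was called past a log2 fold change of 1, by DESeq2 or by edgeR's quasi-likelihood test. An unadjusted p under 0.05 was found for 20, a count given without the share of all genes, so it is not read as a result. TRIM28, the scaffold that KRAB domains bind, fell from 107449 ± 2478 to 82384 ± 6496 normalized counts, a log2 fold change of -0.38 ± 0.07 (SE) at a DESeq2 adjusted p of 1.51e-06. SETDB1, the H3K9 methyltransferase it recruits, was at -0.20 ± 0.08 (adjusted p 0.0435), and its partner ATF7IP at -0.28 ± 0.12 (adjusted p 0.0545). Without the length offset TRIM28 was at -0.15 (adjusted p 0.0614) and ATF7IP at -1.13, and SETDB1 passed in only 3 of the 14 alternative fits. ATF7IP passed in 4, among them the fit without DMSO replicate 1, at -0.43 (2.29e-07).

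Of the HP1 proteins, which read H3K9 methylation, CBX5 fell by 0.59 ± 0.11, while CBX1 (-0.13 ± 0.08) and CBX3 (-0.10 ± 0.07) did not pass (log2 fold change ± SE). CBX1 passed as lower in 2 and CBX3 in 3 of the 14 alternative fits. Of the HUSH complex, which spreads the mark, TASOR fell by 0.76 ± 0.09 and MPHOSPH8 fell by 0.22 ± 0.08, and PPHLN1 (-0.06 ± 0.08) did not pass. The methyltransferases SUV39H2 and EHMT2 fell by 0.65 ± 0.09 and fell by 0.58 ± 0.06, and the deacetylase HDAC2 fell by 0.57 ± 0.07. HDAC1, a close relative of HDAC2, rose by 0.31 ± 0.07 and DAXX, a histone chaperone, by 0.25 ± 0.10. With centring on the mean change 20 of the 26 were lower and 1 higher, with TMM size factors 13 and 3, and without the length offset 16 and 0. DAXX passed in 6 of the 14 alternative fits, MPHOSPH8 in 8 and HDAC1 in 13.

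The H3K9 demethylases, which remove the mark with iron and 2-oxoglutarate as cofactors, leaned the other way. Of 10 measured, 6 were higher and 1 lower at a DESeq2 adjusted p under 0.05, 3 did not pass, and the median log2 fold change was 0.36, beside the same 19.5% and 18.3% over all genes. KDM3A, a gene long known to be induced by hypoxia, was called, at 3458, 3893 and 4154 normalized counts in DMSO and 10155, 7531 and 6985 in Chelator, a log2 fold change of 1.1 ± 0.13 (DESeq2 adjusted p 1.21e-16). The call was lost without Chelator replicate 1 (0.92) and with centring on the mean change (0.998). KDM4A rose by 0.81 ± 0.07, KDM7A by 0.62 ± 0.10, KDM4B by 0.52 ± 0.08, PHF2 by 0.36 ± 0.08 and KDM4C by 0.35 ± 0.10. PHF8 fell by 0.48 ± 0.07. Without the length offset 4 were higher and 2 lower, and KDM7A (0.22) and KDM4C (0.14) did not pass.

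**Figure D5:**
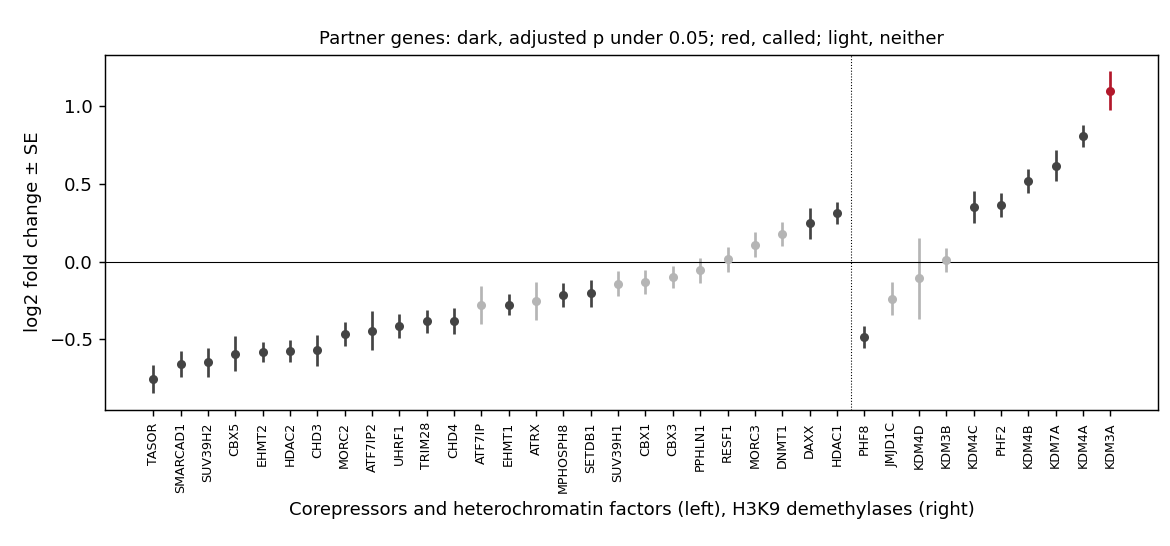
Log2 fold change ± SE (y axis, Chelator against DMSO) of the 26 corepressors and heterochromatin factors (left of the dotted line) and the 10 H3K9 demethylases (right), each list in rising order. Dark points passed an adjusted p under 0.05 and the red point (KDM3A) was called. Most corepressors lie below 0 with a median of -0.28, and most demethylases above 0 with a median of 0.36.

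At the edge of the expression rule, ZNF682 held 3, 3 and 11 estimated counts in DMSO and 29, 11 and 6 in Chelator, ZNF563 held 9, 19 and 17 against 16, 21 and 14, and ZNF560 was given above. Just below the total of 60, ZNF135 held 1, 1 and 7 against 26, 7 and 3, ZNF415 1, 6 and 9 against 9, 4 and 14, and ZNF835 0, 8 and 6 against 10, 2 and 12. The other 10 genes left out had totals between 0 (ZNF536) and 34 (ZNF723). Of the 233 members, 230 had more than 30 counts in both groups, and 3 (ZNF560, ZNF682 and ZNF85) in Chelator alone.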

How the data were processed

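RNA of 3 DMSO and 3 Chelator libraries of K562 cells was measured. The authors ran salmon (1.10.2) on each library and deposited, per transcript, estimated counts and TPM values (abundance corrected for effective length and set to a common sum). The annotation of their index and their bias and strand settings are not given in the sources used here. Of 252045 transcripts, all but 433 (0.139% to 0.150% of the counts) were matched to GENCODE release 44. Estimated counts were summed per gene and rounded to whole numbers, and genes with a total above 10 (26074) were tested in DESeq2 (1.42.0; Wald test on all 6 libraries, group as the only term, median-ratio size factors with average transcript lengths as offsets). The call needed a log2 fold change past 1 in either direction and a p under 0.05 after Benjamini-Hochberg adjustment. Transcript shares were tested in edgeR (4.0.16; diffSpliceDGE, Simes) for transcripts with at least 10 counts in 3 libraries, and called with a change of share above 5 percentage points. In simulated data DESeq2 recovered 98.5% of 200 genes changed 4-fold and called 20 of 23799 unchanged genes, and diffSpliceDGE recovered 38.5% of 200 and called 100 of 11252. For DESeq2 the changed genes came only from those above a minimum mean count, and 4-fold exceeds the change of most called members. The recovery of smaller changes, or of members with few counts, was not measured.

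Members were chosen by symbol and by a total above 60, and they, the marker and partner lists and the roles were chosen with earlier results of these data known. Named were the 8 largest rises and falls among called members with a mean of at least 100 and no overlap, the most abundant member of each cluster, members with a known role, the 4 largest called changes of transcript share, and the 3 genes on each side of the total. The canonical coding sequence was translated (Biopython 1.88) to count C2H2 fingers and to search the first 250 residues for a KRAB-like pattern. Alternatives were TMM size factors, edgeR's quasi-likelihood test, no length offset, removal of GC content and length trends, centring on the mean log2 change, no count filter, protein-coding transcripts alone, a replicate block, and leaving out each library. For the erythroid markers, 1 listed gene is not reported here.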

Additional observations from a re-analysis of the deposited data

How the results depend on the processing

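Over the 42 members named, with 14 alternative fits each, 526 of 588 values kept direction and side of the threshold, 42 lost the call, 2 gained it and 18 changed sign. The number of called members was 20, and was 13 without the length offset, 13 with a member total above 600, 100 without a fold threshold, 2 when the test itself asked for a change beyond 1, and 16 to 22 with a library left out. The median log2 fold change of members (0.06) was 0.10 with TMM and 0.10 with edgeR, 0.025 without the length offset, 0.095 with trends removed, -0.046 with mean centring, 0.12 with protein-coding transcripts and 0.043 to 0.078 with a library left out. Mean centring moved the median of all genes from 0.016 to -0.090, so changes within about that distance of 0 have no firm sign.

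In the order TMM, edgeR, no length offset, trends removed, mean centring, protein-coding transcripts, the cluster 4 median was 0.29, 0.29, 0.16, 0.34, 0.14 and 0.34 (0.20 to 0.30 with a library left out), that of cluster 8 was 0.25, 0.25, 0.055, 0.30, 0.11 and 0.26 (0.18 to 0.25), and that of cluster 9 was -0.10, -0.10, -0.082, -0.29, -0.25 and -0.029 (-0.16 to -0.11), with -0.091 and -0.036 for gaps of 250 and 1000 kb. Cluster 1 was at 0.080 with TMM, 0.080 with edgeR, -0.040 without the length offset and -0.067 with mean centring (-0.073 to 0.042 with a library left out). With mean centring cluster 2 was at -0.058, cluster 6 at -0.027, cluster 7 at 0.085 and cluster 10 at -0.10. With protein-coding transcripts cluster 2 was at 0.13, cluster 3 at 0.15, cluster 6 at 0.12 and cluster 7 at 0.34. Cluster 6 was at 0.17 with trends removed and cluster 7 at 0.32 without the length offset. With a library left out the ranges were -0.15 to 0.065 in cluster 3, 0.040 to 0.16 in cluster 6, 0.21 to 0.29 in cluster 7 and -0.064 to 0.057 in cluster 10. The causes were not tested.

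Called partner genes (1) became 2 without the length offset and 0 with mean centring, and 0 to 1 with a library left out. Members called for transcript shares (7) became 30 with limma, 3 with the replicate block and 1 to 8 with a library left out. Signs changed for ZNF100 (-0.22), ZNF577 (-0.11), ZNF563 (-0.074) and ZNF382 (-0.45) without the length offset, for ZNF558 (-0.026) and ZNF382 (-0.067) with mean centring, for ZNF558 (-0.0057) and ZNF91 (0.17) with trends removed, and for ZNF440 (0.0026), ZNF550 (-0.14) and ZNF91 (0.081) with protein-coding transcripts. With a library left out ZNF382 ranged from -0.33 to 0.37 and ZNF563 from -0.33 to 0.45. Replicate numbers were shared between groups, but same-numbered libraries correlated at -0.074, 0.13 and 0.11 over 13492 genes, so the numbers were not taken as pairs. With the replicate block 21 members were called, and ZNF382 was at -0.054. The 39 members with a mean normalized count below 100 rest on few counts, with a median of 45.3. How far depth limits them was not tested.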

Other observations

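Other zinc finger genes and antisense genes of chromosome 19 lie among the members and were chosen for description after their values were seen. ZSCAN18, a SCAN zinc finger gene near the end of the chromosome, held 53.5, 57.3 and 23.4 normalized counts in DMSO and 337, 368 and 339 in Chelator. The groups were far apart, at a difference of 2.95 ± 0.28 on the log2 scale (SE) and a DESeq2 adjusted p of 7.80e-25. It was the only called gene among 12 with other zinc finger names (such as ZBTB, ZFP and ZSCAN), or 8.33% beside 10.8% of all genes. At an adjusted p under 0.05, 2 of the 12 were higher (16.7%) and 4 lower (33.3%), beside 19.5% and 18.3%. Of 14 antisense genes of ZNF loci, 2 were called (14.3%), both higher, beside 10.8% of all genes. The called counts of both lists are small and close to that background. ZNF528-AS1 held 23.4, 18.8 and 17.4 normalized counts in DMSO and 86.5, 87.4 and 75.9 in Chelator, a log2 fold change of 2.07 ± 0.40 (DESeq2 adjusted p 1.44e-06). Its neighbour ZNF528 was at 0.83 ± 0.28 (adjusted p 0.00900). ZNF460-AS1 was at 1.30 ± 0.51 (adjusted p 0.0316), with normalized counts of 13.8, 34.1 and 17 in DMSO and 38.2, 53.6 and 68.8 in Chelator. Without the strand setting, reads of an antisense gene and its partner cannot be told apart where they overlap.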
